A study of Mus musculus with 9 samples.

Results

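The replication-dependent histone genes supply the core histones H2A, H2B, H3 and H4 and the linker histone H1, which package newly made DNA during S phase. They lie in clusters, most have no intron, and their messenger RNAs end in a conserved stem-loop instead of a poly(A) tail. The stem-loop binding protein Slbp holds that end during processing and translation, and the coactivator Npat switches on transcription of the clusters at the entry into S phase. In the colon, dividing cells sit at the base of the crypts. The members described here are the protein-coding genes of the mouse annotation GENCODE M21 whose symbols begin with Hist1h, Hist2h, Hist3h or Hist4h. The rule found 67 genes, of which 65 were among the 48795 genes of the deposited table. Hist1h2bm and Hist1h2bh were not analysed here. By type, the 65 comprised 6 H1, 18 H2A, 16 H2B, 12 H3 and 13 H4 genes. The annotation (build GRCm38) places 54 of the 67 in the Hist1 cluster at chr13:21715763-23934851, 10 in the Hist2 cluster at chr3:96219865-96270132, 2 in the Hist3 cluster on chromosome 11 and Hist4h4 alone on chromosome 6.

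The 9 RNA-seq libraries came from colon organoids, three-dimensional epithelial cultures grown from mouse crypts in Matrigel. The culture medium, WENR, held Wnt-3A, EGF, Noggin and Rspondin-1 to maintain stem cells. The comparison asked what the ligand FICZ changes when the aryl hydrocarbon receptor (AHR), a ligand-activated transcription factor, is present or deleted. The methods describe AHR KO mice as Villin-Cre Ahr fl/fl, in which Cre acts in the whole intestinal epithelium, and WT mice as littermates on a C57BL/6 background. Ages were not given in the sources used here. The groups were WT with the solvent DMSO (n = 2), WT with 5 nM FICZ (n = 3), AHR KO with DMSO (n = 2) and AHR KO with 5 nM FICZ (n = 2), each exposed for 4 h. The methods name biological replicates, but the labels do not say that each library came from a separate mouse, so p-values measure the spread between these libraries. In bulk RNA, fewer cells making a transcript and less transcript per cell cannot be told apart.

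Ahr itself was not lower in the libraries labelled AHR KO. Its normalised count was 783 to 858 in the 5 WT libraries and 1346 to 1443 in the 4 AHR KO libraries. Cyp1a1, the classical AHR target, stood at 6988 to 7958 in WT FICZ and at 100.3 and 139 in AHR KO FICZ, against at most 5.84 in any DMSO library. Normalised counts summed to 23177058 to 25033827 per library, and 1 read was worth about 0.802 to 1.10 normalised counts, so a gene at 10 rested on roughly 10 reads per library. The epithelial marker Epcam stood at 21237 to 35708, and the summed epithelial markers stood at 302678 to 334737. With limma, 6 of 12 epithelial markers, Epcam among them, were called lower in AHR KO under DMSO (median log2 change -0.43). Under FICZ 6 were called lower and 1 higher (median -0.52). Of all tested genes, 9.05% under DMSO and 20.0% under FICZ were called in either direction. Of 8 fibroblast markers, Lum was at 0 in every library and Col1a1 reached at most 4.34, but Pdgfrb stood at 55.7 to 110 in WT and at 15.3 to 34.5 in AHR KO, and was called lower in AHR KO with limma, with log2 changes of -1.60 under DMSO and -1.55 under FICZ (adjusted p = 0.0155 and 0.00533). The summed fibroblast markers were 57.5 to 85.8 in WT DMSO, 87.5 to 111 in WT FICZ, 19.4 to 32.8 in AHR KO DMSO and 33.9 to 39.1 in AHR KO FICZ. Among the immune markers, Ptprc was at 0 in every library, Cd68 stood at 475 to 712 and Csf1r at 5.86 to 17.4. The summed immune markers were 507 to 586 in WT DMSO, 482 to 535 in WT FICZ, 506 to 604 in AHR KO DMSO and 563 to 727 in AHR KO FICZ. The part of other cell types in the histone values was not tested.

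The stem-loop is the feature that sets these transcripts apart. A 16-base stem-loop core was found behind the stop codon of 44 of the 67 annotated members, between 21 and 58 bases after it. Only the annotated transcript after the stop codon was searched. Some members without a core have short annotated transcripts, such as Hist1h4k at 312 bases, and others, such as Hist2h2be at 2620 bases, long ones. A core that was not found is therefore not shown to be absent from the gene. The annotated transcripts of 22 of these 44 ran on for 100 or more bases past the core. The cores below are shown with up to 5 flanking bases from GENCODE M21 transcripts, 5′ to 3′, for 10 members described below. Capitals mark the stem-loop.
Hist1h1c: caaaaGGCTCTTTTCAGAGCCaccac
Hist1h1e: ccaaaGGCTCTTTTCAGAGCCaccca
Hist1h2ap: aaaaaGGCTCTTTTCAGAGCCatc
Hist2h2aa1: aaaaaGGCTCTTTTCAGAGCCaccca
Hist2h2aa2: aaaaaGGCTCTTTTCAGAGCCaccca
Hist3h2a: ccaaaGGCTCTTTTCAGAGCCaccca
Hist1h2bg: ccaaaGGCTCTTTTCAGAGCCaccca
Hist2h3c2: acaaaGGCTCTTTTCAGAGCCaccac
Hist1h3e: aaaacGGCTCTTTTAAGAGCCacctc
Hist1h4i: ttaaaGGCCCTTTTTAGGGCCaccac
All 33 members of H1, H2A, H2B and H3 with a core began it with GGCTC, whereas none of the 11 H4 members with a core did. Of those H4 cores, 9 began with GGCCC and 2, in Hist1h4b and Hist1h4j, with GGTCC.

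In the promoters, the CCAAT box separated H4 from the other types, while the TATA box and the octamer did not. RefSeq promoters (250 bases before to 50 after the start, GRCm38.p6) were matched for 62 of the 67 members. The CCAAT box, searched as CCAAT on both strands, was present in 53 of the 62 (85.5%), against 37.9% of 27025 promoters of all genes. It was found in all 50 matched H1, H2A, H2B and H3 promoters but in 3 of 12 H4 promoters (25%). The TATA box, searched as TATAAA, was found in 35 members (56.5%), against 14.2% of all genes, and by type in 40% (H3) to 66.7% (H1 and H4). The octamer ATTTGCAT was present in 7 H2A and 6 H2B promoters and in no H1, H3 or H4 promoter, against 1.8% of all genes. GCGTG, the core letters to which AHR and its partner bind, was present in 17 members (27.4%), against 32.5% of all genes. These matches describe letters in a window and are not binding sites. Neighbouring H2A and H2B genes transcribed away from each other share parts of their windows, so promoters are not independent. The 150 bases before the start are shown for 3 members, 5′ to 3′ on the strand of the gene, with these motifs other than GCGTG in capitals. Hist1h1e (chr13:23622559-23622708, minus strand) shows the CCAAT and TATA boxes together, Hist1h2bg (chr13:23571250-23571399, plus strand) adds the octamer, and Hist1h4i (chr13:22041363-22041512, minus strand) has no CCAAT box in the stretch.
Hist1h1e: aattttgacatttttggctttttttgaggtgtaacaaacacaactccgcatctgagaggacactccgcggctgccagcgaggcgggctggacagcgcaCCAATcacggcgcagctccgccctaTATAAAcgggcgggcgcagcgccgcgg
Hist1h2bg: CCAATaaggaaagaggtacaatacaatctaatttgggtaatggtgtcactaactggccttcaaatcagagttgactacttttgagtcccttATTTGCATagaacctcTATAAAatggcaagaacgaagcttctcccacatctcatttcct
Hist1h4i: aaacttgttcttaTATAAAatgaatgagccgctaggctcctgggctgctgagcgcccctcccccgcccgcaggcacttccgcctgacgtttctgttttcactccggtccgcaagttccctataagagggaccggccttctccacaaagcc

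Most histone cluster genes were barely detected, and 6 carried most of the counts. Of the 65 members, 3 (Hist1h2aa, Hist1h2ba and Hist1h2ao) were listed at 0 in all libraries, 39 had a mean under 10 normalised counts over the 9 libraries, and 6 had a mean of 100 or more. Those 6 held 83.7 to 86.7% of the members' summed count in WT FICZ and 86.3 to 93.8% in the other libraries. All members together made up 0.017 to 0.027% of a library. Genes of the replicating cell were abundant in the same libraries, with Pcna, the sliding clamp of DNA polymerase, at 6374 to 7545 and the proliferation marker Mki67 at 12809 to 19653. Other short RNAs without a poly(A) tail were also low, as described further on. Total histone messenger RNA and a polyadenylated or residual fraction of it therefore cannot be told apart in these counts. Hist1h1t, the testis H1, had a value above 0 in 1 library only (0.993).

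**Figure D1:**
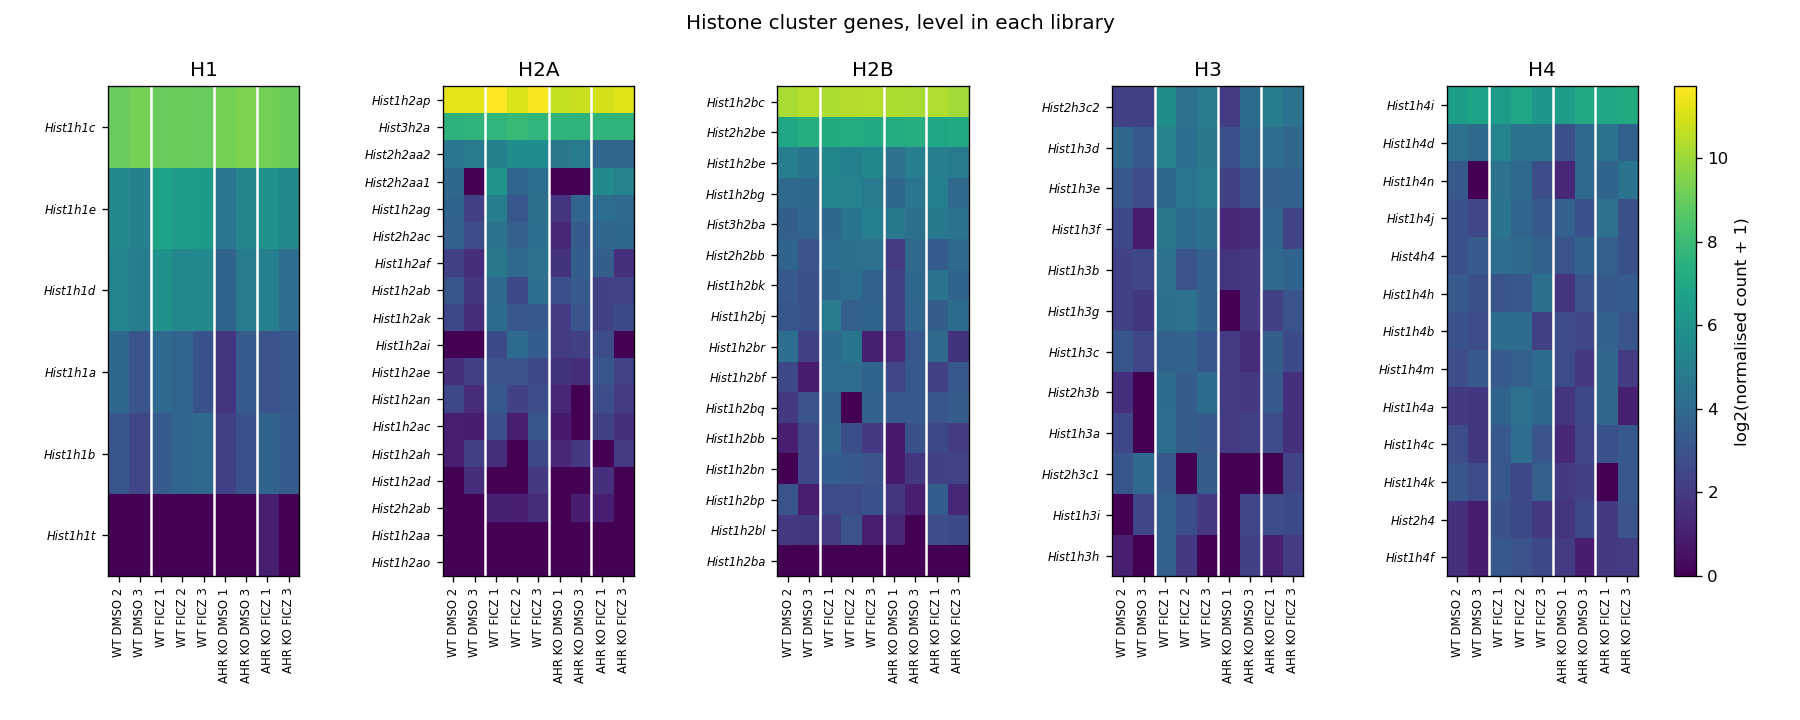
Level of each of the 65 members in each of the 9 libraries, as log2(normalised count + 1) in colour, with genes in rows by histone type and libraries in columns by group and replicate number. The 6 bright rows are Hist1h1c, Hist1h2ap, Hist3h2a, Hist1h2bc, Hist2h2be and Hist1h4i, and most other rows are dark in every group.

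None of the 6 members with a mean of 100 or more was called with FICZ in either genotype, against 36.3% of all tested genes with such a mean in WT and 23.7% in AHR KO. Hist1h2ap, an H2A gene, was highest with 2510 and 2512 in WT DMSO, 3374, 2142 and 3131 in WT FICZ, 1657 and 1779 in AHR KO DMSO, and 1999 and 2299 in AHR KO FICZ. The WT FICZ libraries lay on both sides of WT DMSO, and both AHR KO DMSO libraries lay below both WT DMSO libraries. Of the 50-base windows of its transcript, 93.1% occurred in another gene as well, chiefly its copy Hist1h2ao, which was listed at 0, so the split of reads between such copies is uncertain. Hist1h2bc, an H2B gene annotated with a second exon, had 1191 and 1347 in WT DMSO, 1242, 1320 and 1345 in WT FICZ, 1230 and 1220 in AHR KO DMSO, and 1282 and 1090 in AHR KO FICZ. FICZ and DMSO libraries of Hist1h2bc overlapped in both genotypes. Hist1h1c, the linker histone H1.2, had 507 and 611 in WT DMSO, 515, 536 and 506 in WT FICZ, 609 and 681 in AHR KO DMSO, and 599 and 547 in AHR KO FICZ. Its annotated transcript runs 840 bases past the stem-loop. Hist3h2a, whose span overlaps Trim17 on the same strand, ranged from 186 to 236. Hist2h2be, with a transcript of 2620 bases, ranged from 120 to 156. Hist1h4i, the highest H4 gene, ranged from 70.8 to 136. The log2 changes with FICZ of these 6 lay between -0.19 and 0.19 in WT, with adjusted p-values from limma of 0.223 or more, and between -0.26 and 0.32 in AHR KO, with adjusted p-values of 0.217 or more.

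Per kilobase of transcript, the level fell steeply from type to type. The highest H2A member, Hist1h2ap, averaged 4934 normalised counts per kilobase over the 9 libraries. The highest H2B member, Hist1h2bc, averaged 1083, the highest H1 member, Hist1h1c, 364, and the highest H4 member, Hist1h4i, 147. The highest H3 member, Hist2h3c2, averaged 19.6. No H3 gene reached a mean of 100 normalised counts, and 9 of the 12 had a mean under 10.

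The 59 members with a mean under 100 had a higher summed level with FICZ in both genotypes. Their summed normalised count was 463 and 339 in WT DMSO and 1084, 801 and 826 in WT FICZ, a ratio of means of 2.25. In AHR KO it was 262 and 466 with DMSO and 687 and 519 with FICZ, a ratio of 1.66. The AHR KO ratio moved with the DMSO library kept, to 2.30 without AHR KO DMSO replicate 3 and to 1.30 without AHR KO DMSO replicate 1, while the WT ratio lay between 1.95 and 2.66 with any 1 library left out. Every FICZ library lay above every DMSO library of its genotype. The summed count of the 6 high members overlapped between WT DMSO (4609 and 4932) and WT FICZ (5566, 4498 and 5399), with a ratio of 1.08. In AHR KO it was 3939 and 4163 with DMSO and 4324 and 4407 with FICZ, also a ratio of 1.08, and those groups did not overlap. A sum over members was given no test, and the division at a mean of 100 describes levels only.

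**Figure D2:**
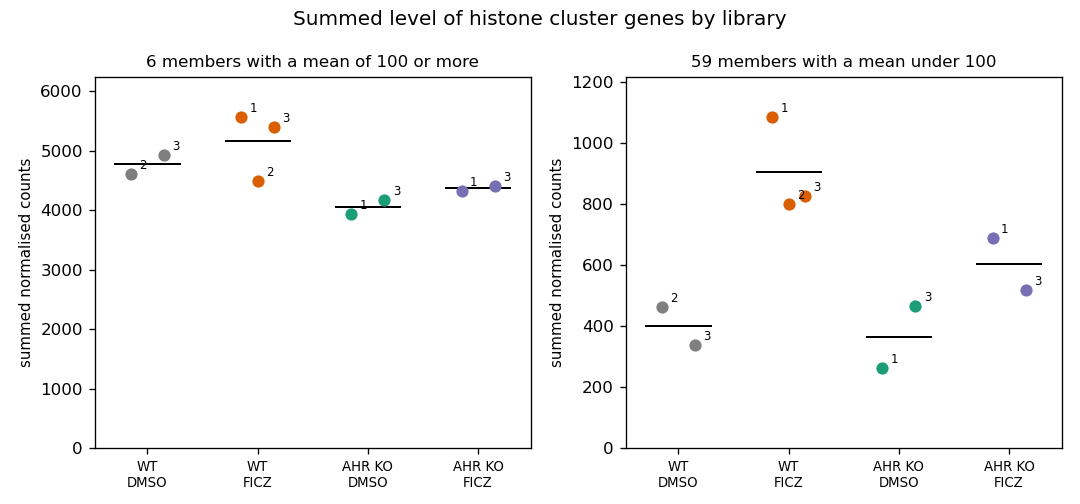
Summed normalised counts of the 6 members with a mean of 100 or more (left) and the 59 with a lower mean (right), with 1 point per library labelled by replicate number and a line at the group mean. On the right the WT FICZ libraries sit between 801 and 1084, above WT DMSO at 339 and 463.

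Each histone type took part in the higher sums of the low members in WT. H3 had the largest ratio, from 56.3 ± 8.39 (SD, n = 2) in WT DMSO to 186 ± 52.7 (n = 3) in WT FICZ, or 3.31 times. H2A low members went from 71.5 ± 22.6 to 190 ± 48.0, or 2.66 times. H4 went from 73.7 ± 15.3 to 152 ± 22.0, H2B from 110 ± 20.0 to 209 ± 22.2, and H1 from 89.9 ± 21.4 to 166 ± 26.7. In AHR KO the corresponding ratios were 2.46 for H3, 1.80 for H2A, 1.65 for H4, 1.34 for H2B and 1.59 for H1. These AHR KO ratios also moved with the DMSO library kept. Without AHR KO DMSO replicate 3 they ran from 1.78 (H2B) to 4.04 (H3), and without AHR KO DMSO replicate 1 from 1.07 (H2B) to 1.77 (H3). For H1 and H2B, AHR KO DMSO replicate 3 (83.5 and 153) lay above AHR KO FICZ replicate 3 (82.0 and 145), so those groups overlapped.

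**Figure D3:**
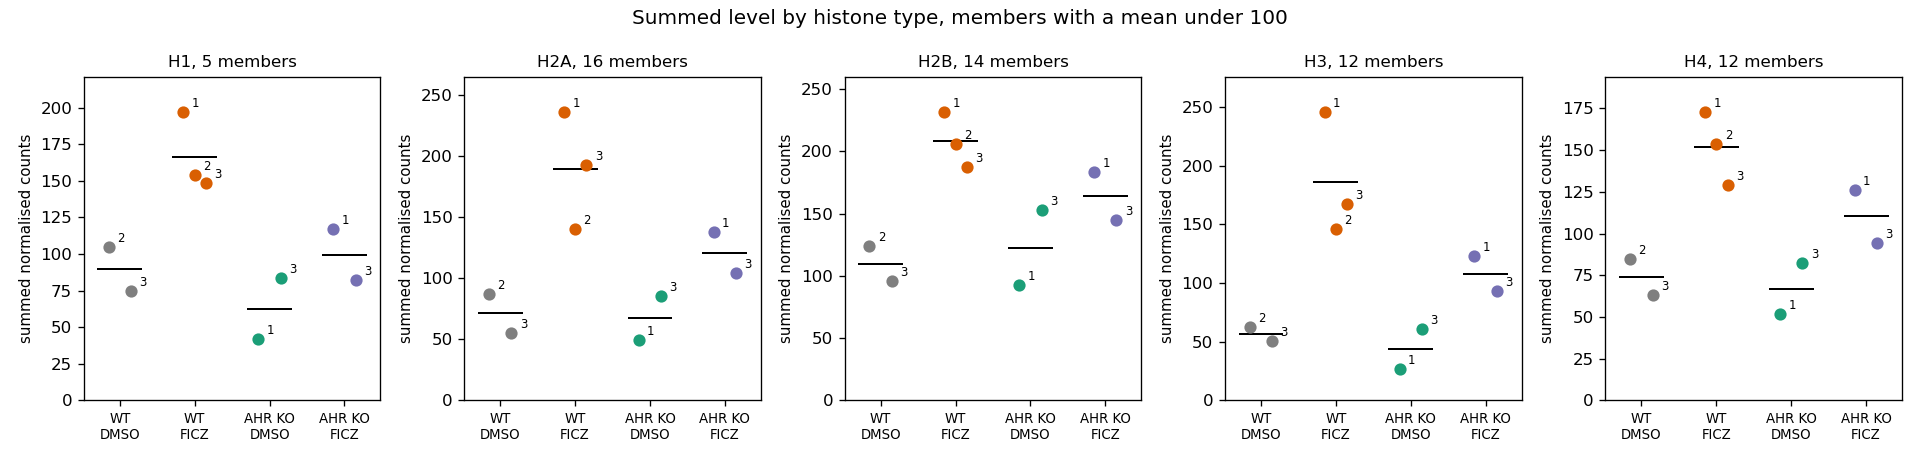
Summed normalised counts of the members with a mean under 100, by histone type, with 1 point per library labelled by replicate number and a line at the group mean. In all 5 panels the 3 WT FICZ libraries lie above both WT DMSO libraries, and the H3 panel shows the largest ratio of means (3.31).

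Counted gene by gene, 53 members had a mean from 1 to 100, and 6 more had a mean under 1. Of the 53, 33 (62.3%) had every WT FICZ library above both WT DMSO libraries, against 18.6% of the 6590 genes of the table in that range, and none had every one below, against 9.51%. The 33 comprised 3 H1, 6 H2A, 8 H2B, 8 H3 and 8 H4 genes. In AHR KO, 21 of the 53 (39.6%) had both FICZ libraries above both DMSO libraries, against 23.9% of the genes in that range, and 2 had both below, against 14.2%. H3 genes made up 8 of those 21. Members that share sequence also share reads, so the members are not independent counts.

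The test across all genes was limma on log2(normalised count + 1), run on genes with a mean of 10 or more (12741 genes, 26 of them members), with p-values adjusted by the Benjamini-Hochberg method over all genes and a call at an adjusted p under 0.05. With FICZ in WT, 5 of the 26 tested members were called, all higher, against 30.8% of all tested genes called in either direction and 15.1% called higher. The count depended on the processing. It was 3 with a GC and length trend removed, 3 with the replicate number as a fixed block and 2 without WT FICZ replicate 3. The fixed block joins WT and AHR KO libraries of the same number. With libraries of the same genotype and number joined by a random effect, the count stayed at 5. No member was called lower, against 15.7% of all tested genes. The members' share called (19.2%) was thus below the share of all genes called in either direction and above the share called higher. Among tested genes with a mean under 100, 8.28% were called, and 5 of the 20 members in that range (25%). The median log2 change of the 26 was 0.89, against -0.01 for all tested genes, and 24 of the 26 had a positive value. The median was 0.55 over the 15 members sharing under 50% of their windows with another gene, and also 0.55 with 10 in place of 1 added before the logarithm. Of the 26, 7 reached the filter only through the group where they were highest (WT FICZ for 6 of them), with a mean under 10 over the other groups, and 2 of the called members, Hist1h2af and Hist1h3e, are among them. Such members lean toward a difference, and the counts over 53 members above rest on a lower limit for that reason.

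Of the H1 genes, Hist1h1e, the linker histone H1.4, rose with FICZ in WT. It had 44.8 and 33.6 in WT DMSO and 109, 85.5 and 81.6 in WT FICZ. The change was 1.21 ± 0.28 (SE) on the log2 scale (adjusted p = 0.00927). Without WT DMSO replicate 3 the adjusted p was 0.0772. In AHR KO it had 22.97 and 39.4 with DMSO and 63.6 and 45.8 with FICZ (log2 change 0.82, adjusted p = 0.0862). Neither pair of groups overlapped. Its span overlaps Hist1h2be on the same strand. Hist1h1d, H1.3, had 37.9 and 29.0 in WT DMSO and 63.6, 41.7 and 44.3 in WT FICZ (log2 change 0.55, adjusted p = 0.31). Hist1h1c had a log2 change of -0.10 (adjusted p = 0.462). Hist1h1a and Hist1h1b were under the filter, with means of 9.38 and 9.37, and Hist1h1b had 7.78 and 4.67 in WT DMSO against 9.70, 13.2 and 15.7 in WT FICZ.

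Of the core histones, the H3 gene Hist2h3c2 was called higher in WT, though the split of reads with its copy Hist2h3c1 is uncertain. It had 3.89 and 3.75 in WT DMSO and 54.3, 19.4 and 27.7 in WT FICZ, and its log2 change was 2.73 ± 0.61 (adjusted p = 0.00804). In AHR KO it had 3.18 and 16.4 with DMSO and 29.9 and 21.4 with FICZ (log2 change 1.62, adjusted p = 0.114). A second H3 gene, Hist1h3e, was called higher but reached the filter only through WT FICZ, so its call is no independent support. Hist1h3e had 8.76 and 5.62 in WT DMSO and 14.1, 23.5 and 26.6 in WT FICZ, with a log2 change of 1.43 ± 0.44 (adjusted p = 0.0313). It averaged 7.96 outside WT FICZ. Its adjusted p was 0.182 without WT DMSO replicate 3, 0.0698 without WT DMSO replicate 2, 0.0673 without WT FICZ replicate 2 and 0.0994 without WT FICZ replicate 3. The third tested H3 gene, Hist1h3d, had a log2 change of 1.17 and was not called (adjusted p = 0.0676). Of the windows of Hist2h3c2, 63.5% were shared with other genes, and of Hist1h3e 73.4%.

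The H2A gene Hist1h2af and the H2B gene Hist1h2bg completed the calls in WT. Hist1h2af had 3.89 and 1.84 in WT DMSO and 24.98, 14.97 and 20.1 in WT FICZ, with a log2 change of 2.47 ± 0.71 (adjusted p = 0.0245). It passed the filter, with a mean of 10.12, only through WT FICZ, since it averaged 5.19 over the other groups, so the call is no independent support. Its adjusted p was 0.0634 without WT DMSO replicate 2 and 0.143 without WT DMSO replicate 3. In AHR KO its groups overlapped, with 2.32 and 10.3 against 10.7 and 2.09. Hist1h2bg had 15.6 and 14.8 in WT DMSO and 38.0, 36.2 and 27.0 in WT FICZ, with a log2 change of 1.09 ± 0.37 and an adjusted p of 0.0485, just inside the threshold. Its call held in 7 of 21 settings of the analysis, and that of Hist1h2af in 13 of 18. None of the 5 tested H4 genes was called. The H4 genes ranged from -0.19 for Hist1h4i to 2.07 for Hist1h4n, whose WT DMSO values were 8.75 and 0.

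**Figure D4:**
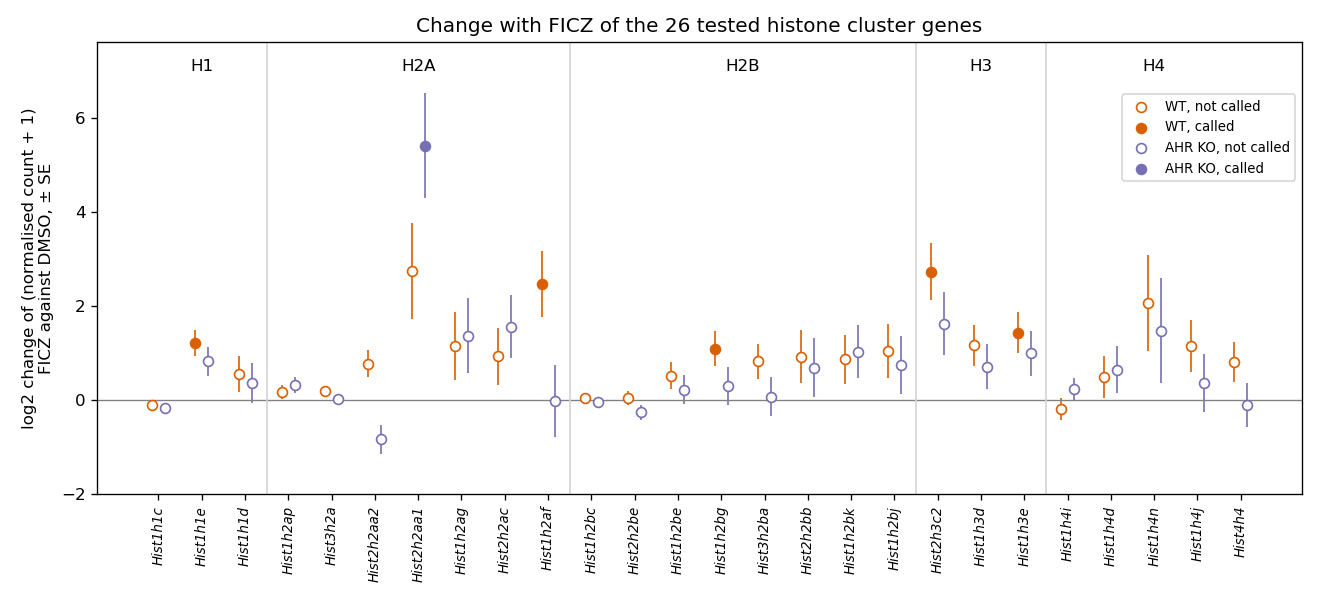
Log2 change of (normalised count + 1) with FICZ for the 26 tested members in WT (orange) and AHR KO (violet), with bars of 1 SE, grouped by histone type and ordered by mean level within it. Filled points were called by limma, and the 5 filled WT points are Hist1h1e, Hist1h2af, Hist1h2bg, Hist2h3c2 and Hist1h3e. The high AHR KO point is Hist2h2aa1, whose AHR KO DMSO libraries were at 0, so its size depends on the added 1.

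With FICZ in AHR KO, 1 of the 26 members was called, against 19.7% of all tested genes in either direction and 10.2% higher. Among tested genes with a mean under 100, 3.20% were called, and 1 of the 20 members in that range. The member was Hist2h2aa1, an H2A gene listed at 0 in both AHR KO DMSO libraries and at 47.5 and 36.0 in AHR KO FICZ (adjusted p = 0.0101, and 0.0733 without AHR KO DMSO replicate 1). Its neighbour Hist2h2aa2, in which every 50-base window also occurs in another gene, moved the other way, with 24.3 and 26.6 against 13.8 and 13.7 (log2 change -0.84, adjusted p = 0.0856). Summed, the pair had 24.3 and 26.6 in AHR KO DMSO and 61.3 and 49.8 in AHR KO FICZ, a ratio of 2.18. In WT the pair had 37.9 and 27.9 with DMSO and 98.0, 64.7 and 70.0 with FICZ, a ratio of 2.36. The values of the single copies are therefore uncertain, while the sum was higher with FICZ in every library of both genotypes. Both copies also share windows with Gm20634, whose values are not given here, so the sum is not free of this uncertainty. The median log2 change of the 26 members in AHR KO was 0.36, against -0.01 for all tested genes. The DMSO library kept decided its size, since it was 0.06 without AHR KO DMSO replicate 1 and 1.04 without AHR KO DMSO replicate 3.

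The interaction, which subtracts the AHR KO response to FICZ from the WT response, was called for 0 of the 26 members with limma, against 0.447% of all tested genes, and 2 members had an unadjusted p under 0.05. The smallest adjusted p was 0.248, for Hist2h2aa2. The median interaction of the 26 was 0.30 on the log2 scale. It was -0.01 over 28 members without AHR KO DMSO replicate 3 and 0.63 over 30 members without AHR KO DMSO replicate 1. Its size thus depended on the AHR KO DMSO library kept. Of the 26, 6 reached the filter only through WT FICZ, which leans this median upward. It is therefore no independent support for a larger response in WT.

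Few members were called between genotypes, while under FICZ the summed level of the low members was lower in every AHR KO library than in every WT library. Under DMSO, 0 of the 26 were called in AHR KO against WT with limma, against 9.05% of all tested genes, and 1 had an unadjusted p under 0.05. The smallest adjusted p was 0.0787, for Hist1h2ap at 1718 ± 86.3 (n = 2) in AHR KO against 2511 ± 1.52 (n = 2) in WT. Under FICZ, 1 of the 26 was called, against 20.0% of all tested genes. It was Hist2h2aa2, lower in AHR KO FICZ (13.8 and 13.7) than in WT FICZ (32.9, 51.5 and 51.5), with a log2 change of -1.62 ± 0.28 (adjusted p = 0.00299). For the pair with Hist2h2aa1 the sums were 61.3 and 49.8 against 98.0, 64.7 and 70.0, a ratio of 0.716. The summed count of the 59 low members was 687 and 519 in AHR KO FICZ and 1084, 801 and 826 in WT FICZ, a ratio of 0.668. Under DMSO the ratio was 0.907. It was 0.653 without AHR KO DMSO replicate 3, and its direction turned without AHR KO DMSO replicate 1 and without WT DMSO replicate 2 (1.07). Of the 53 members with a mean from 1 to 100, 18 (34.0%) had both AHR KO FICZ libraries below all WT FICZ libraries, against 13.0% of the genes in that range, and none had both above, against 17.9%. Under DMSO, 11 of the 53 (20.8%) had both AHR KO libraries below both WT libraries, against 16.6%, and 5 had both above, against 24.6%. The median log2 change of the 20 tested members with a mean under 100 was -0.44 under FICZ and -0.03 under DMSO. Of these 20, 6 reached the filter only through WT FICZ, which leans the median under FICZ toward lower values in AHR KO. That median is therefore no independent support for a lower level. The WT FICZ libraries serve in this comparison and in that of FICZ with DMSO, so the comparisons are not independent.

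Among genes that make and finish histone messenger RNA, most of those called with FICZ fell. Of 27 tested genes of histone transcription and 3′ end processing, 12 (44.4%) fell and 2 rose in WT, with a median log2 change of -0.16, against 15.7% of all tested genes called lower and 15.1% called higher. In AHR KO 8 (29.6%) fell and 2 rose, against 9.48% of all tested genes called lower and 10.2% called higher. Npat had 1292 and 1358 in WT DMSO and 1115, 1035 and 1031 in WT FICZ (log2 change -0.32, adjusted p from limma 0.00355). Casp8ap2, known as FLASH and part of the histone locus body, had 1562 and 1424 against 802, 805 and 1071 (log2 change -0.75, adjusted p = 0.00158). Its change in AHR KO was -0.71 (adjusted p = 0.00673). In WT, the stem-loop binding protein gene Slbp had 1828 and 2019 with DMSO and 1838, 1853 and 1745 with FICZ (log2 change -0.08, adjusted p = 0.302). Lsm11 of the U7 particle (0.22, adjusted p = 0.268) and Zfp473 (0.16, adjusted p = 0.651) were not called in WT. In WT Cstf2, a cleavage factor, fell by 0.49, Eri1, an exonuclease that trims the stem-loop end, fell by 0.50, and Ccne2, a cyclin of S phase entry, fell by 0.61.

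Called chaperone, S phase and G2/M genes also mostly fell. All tested genes of these 3 lists had a mean of 100 or more, where 36.3% of genes were called in WT (19.0% lower) and 23.7% in AHR KO (11.6% lower). Of 24 tested histone chaperone genes, 9 (37.5%) fell and 3 rose in WT, and 7 (29.2%) fell and 1 rose in AHR KO. In WT Nasp, which carries H1 and H3 with H4, fell by 0.43, Npm1 fell by 0.55, and Ssrp1 of the FACT complex fell by 0.51, and in AHR KO they fell by 0.40, 0.46 and 0.38. Of 36 tested S phase genes, 17 (47.2%) fell and 0 rose in WT. In AHR KO 6 (16.7%) fell and 2 rose, so 22.2% were called, near the share of all genes at that level. In WT the checkpoint mediator Clspn fell by 0.69 and the chromatin remodeller Hells fell by 0.90, and in AHR KO Clspn fell by 0.69 and Hells by 0.60. The replication helicase subunit Mcm3 fell by 0.39 in WT, and its log2 change in AHR KO was -0.01 (adjusted p = 0.94). Its limma interaction was -0.38 (adjusted p = 0.273), so the difference between genotypes was not called. Of 25 tested G2/M genes, 10 (40%) fell and 1 rose in WT, and 10 (40%) fell and 0 rose in AHR KO. Mki67 had a log2 change of -0.03 in WT (adjusted p = 0.86) and -0.13 in AHR KO (adjusted p = 0.467). The median log2 change with FICZ in WT was -0.22 for the S phase genes, all 36 of which had a mean of 100 or more, and 0.04 for the 6 histone members at that level. It was 0.89 for all 26 tested histone members, 20 of which had a mean under 100. Of the 26, 6 reached the filter only through WT FICZ, which leans that median upward. The 0.89 is therefore no independent support for a difference from the S phase genes.

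Histone variants whose symbols fall outside the rule, most of which have polyadenylated transcripts, were together more abundant than the cluster genes. Of 11 tested, 2 (18.2%) rose with FICZ in both genotypes and none fell, a share near the 15.1% of all tested genes called higher in WT and above the 10.2% in AHR KO. H2afj lies at chr6:136808244-136810074, near the member Hist4h4 at chr6:136801553-136804415. It had 450 and 442 in WT DMSO and 958, 765 and 1050 in WT FICZ (log2 change 1.04, adjusted p from limma 0.000444). H2afx, the variant phosphorylated at DNA breaks, whose transcripts end either in a stem-loop or in a poly(A) tail, had 1445 and 1614 against 2158, 1962 and 2088 (log2 change 0.44, adjusted p = 0.00181). In AHR KO their changes were 0.85 and 0.47. The summed level of the 11 variants was 50974 to 56086 in any library, beside 4201 to 6650 for all 65 cluster genes.

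Other short RNAs without a poly(A) tail were also near the lower end of the table. These genes are short as well as without a tail, so these features cannot be told apart in their values. Of 13 such genes in the table, 2 were listed at 0 in all libraries, among them Rn7sk, and 1 passed the filter. The sum of the 13 was 24.5 and 38.7 in WT DMSO, 51.5, 36.4 and 50.5 in WT FICZ, 24.9 and 15.3 in AHR KO DMSO, and 44.9 and 44.8 in AHR KO FICZ. The methods name depletion of ribosomal RNA, which keeps RNAs without a tail. Genes annotated as small nuclear RNA, which are also short, summed to 3.95 to 13.2 per library. Genes annotated as snoRNA summed to 33.7 and 24.9 in WT DMSO, 41.2, 58.6 and 50.2 in WT FICZ, 39.0 and 38.1 in AHR KO DMSO, and 39.3 and 57.1 in AHR KO FICZ, so every FICZ library lay above every DMSO library of its genotype, as with the low histone sums. Some values of ribosomal RNA were higher with FICZ as well. The 354 genes annotated as rRNA summed to 1279 and 802 in WT DMSO, 4230, 7133 and 2955 in WT FICZ, 571 and 1509 in AHR KO DMSO, and 4062 and 1926 in AHR KO FICZ. Gm26917, a noncoding gene chosen after its values were seen, had 764 and 829, then 2388, 1832 and 2197, in WT, and 699 and 847, then 2339 and 1992, in AHR KO. Its neighbour Gm42418, also chosen after its values were seen, had 210696 and 113458, then 326264, 368661 and 292776, in WT, and 62798 and 197489, then 276273 and 126519, in AHR KO, and was not called with limma (adjusted p = 0.0969 and 0.323). The 2 mitochondrial rRNA genes summed to 78017 and 64400 in WT DMSO, 98504, 80085 and 77466 in WT FICZ, 57564 and 72286 in AHR KO DMSO, and 79346 and 52608 in AHR KO FICZ, and overlapped between DMSO and FICZ in both genotypes. In each of the 3 groups with 2 libraries, the library with the higher sum of low histone members also had the higher rRNA sum. In WT FICZ, replicate 2 had the highest rRNA sum and the lowest sum of low histone members. The part of library composition in the histone values was not tested.

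**Figure D5:**
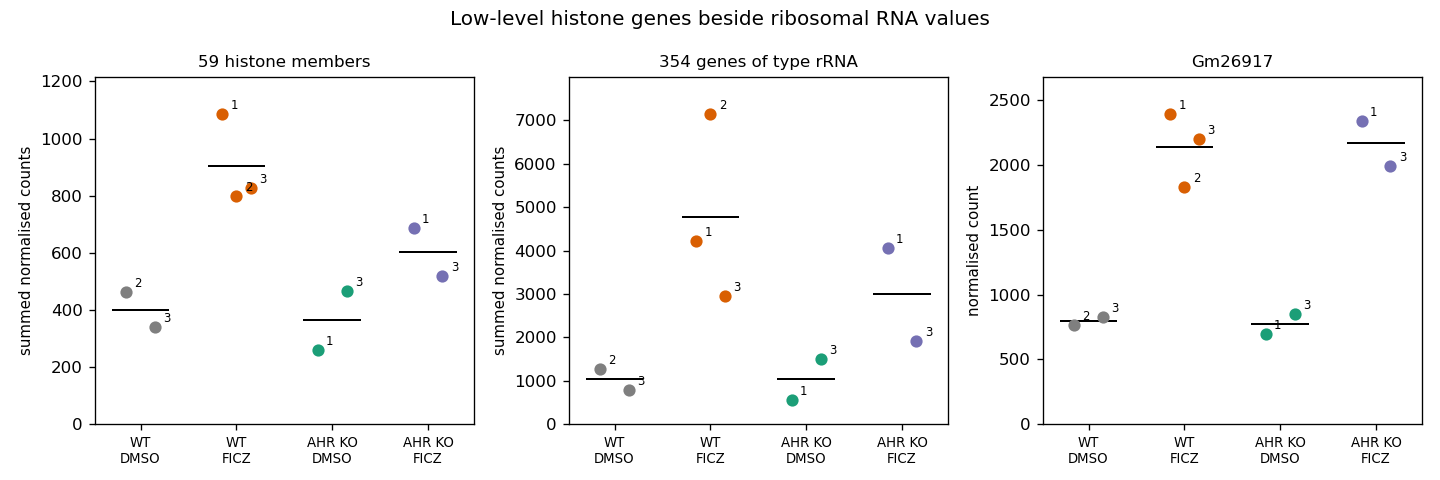
Summed normalised counts of the 59 members with a mean under 100 (left), summed normalised counts of the 354 genes annotated as rRNA (middle) and the normalised count of Gm26917 (right), with 1 point per library labelled by replicate number and a line at the group mean. All 3 quantities are higher in every FICZ library than in every DMSO library of the same genotype.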

How the data were processed

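RNA was sequenced from 9 organoid libraries. The authors deposited normalised read counts per gene, a signal at or above 0 that can hold fractions. The submitters' processing notes name STAR 2.5.2a, RSEM 1.2.31, DESeq2 1.16.1 and GRCm38, while the study's methods name summarizeOverlaps with mm10 and a stranded kit with RiboZero Gold. Which step made the table, and whether counting used strand, is not given in the sources used here, so antisense genes that overlap H2A members may add reads. Library depth was about 21.5 to 30.1 M reads.

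For this report, 48349 of 48795 identifiers were matched to GENCODE M21. Values entered limma 3.58.1 (R 4.3.3) as log2(value + 1) in 1 model with 4 groups, with a trend in eBayes and two-sided tests of 5 contrasts. For low genes, changes fitted on this scale can lie below or above the change of the group means. Sequence sharing was counted over 50-base windows of all annotated transcripts of a member, searched in the transcripts of all other genes. Scripts were tested on simulated data. The members and lists were chosen with earlier results of these data known. Named members were the highest per kilobase of each type, the called members and the H1 genes; from other lists, among the 6 called genes with the largest change each, and 6 fixed names. Further genes were chosen after their values were seen. Alternatives were pseudocounts of 0.1 and 10, other filters and scalings, a GC and length correction, a replicate block, and leaving out libraries.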

Additional observations from a re-analysis of the deposited data

Results flagged for a closer look

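Hist2h2aa2 was noted because the libraries of WT and AHR KO moved in opposite directions with FICZ. All 3 WT FICZ libraries lay above both WT DMSO libraries and both AHR KO FICZ libraries lay below both AHR KO DMSO libraries. The limma interaction had an adjusted p of 0.248, so the difference was not called, and the copy Hist2h2aa1 shares its sequence.

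Hist2h3b was noted because both AHR KO DMSO libraries (mean 2.98) lay above both WT DMSO libraries (1.94 and 0), while both AHR KO FICZ libraries (8.85 and 2.11) lay below all WT FICZ libraries (16.9, 10.1 and 16.4). It was under the filter. With no filter, the limma interaction was 2.66 ± 0.99 (SE) on the log2 scale (adjusted p = 0.667), so the difference was not called.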

How the results depend on the processing

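The count of members called with FICZ in WT was 5. It was 3 with a GC and length trend removed, 3 with the replicate number as a fixed block and 3 with both. It stayed at 5 with libraries of the same genotype and number joined by a random effect. It was 2 without members sharing 50% or more of their windows, and 0 with a mean of 100 or more (6 members, median 0.043). Leaving out 1 library gave 1 (without WT DMSO replicate 3) to 6, and 2 without WT FICZ replicate 3. In AHR KO the count of 1 became 2 with only the groups compared, 0 with a mean of 100 or more, 0 without shared members, and 0 (without AHR KO DMSO replicate 1) to 3 (without AHR KO DMSO replicate 3) when 1 library was left out. The AHR KO median of 0.36 ran from 0.06 to 1.04 in those same fits. Under DMSO the genotype count of 0 became 1 with only the groups compared and 1 with the block, with or without the GC and length correction, and 0 to 1 with a library left out. Under FICZ the count of 1 became 2 with the block, with or without the correction, 0 with a mean of 100 or more, 0 without shared members, and 1 to 3 with a library left out. The interaction count was 0 in every setting run. Its median of 0.298 ran from -0.014 (without AHR KO DMSO replicate 3) to 0.629 (without AHR KO DMSO replicate 1) with a library left out. The sign of Hist1h1c with FICZ in WT turned to 0.032 without WT DMSO replicate 3, with a range of -0.237 to 0.032 over libraries left out. Without Hist1h2ap, the log2 ratio of all members' sums was 0.064 for FICZ in AHR KO (0.17 with it) and 0.02 for genotype under DMSO (-0.23 with it). The sum of the low members without those sharing windows, an alternative chosen after seeing the data, had a ratio of 2.04 in WT and 1.53 in AHR KO.

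Same-numbered DMSO and FICZ libraries correlated at 0.035 to 0.05 over 12741 genes, and other pairs at -0.05 to 0.001. With 2 libraries in a group these values mirror each other, so they cannot show whether a shared number marks paired libraries. The main model ignores the numbers, and the counts with the block are given above. Most members rest on 1 to 30 reads a library, which limits the single-gene tests. The cause of each change was not tested.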
